A study of Mus musculus with 8 samples.

Results

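The beta-crystallins are a family of lens structural proteins, and the 6 mouse genes described here encode 3 acidic members (Cryba1, Cryba2 and Cryba4) and 3 basic members (Crybb1, Crybb2 and Crybb3). They were taken by gene name, with no expression filter, from a table of 57010 genes, and each name matched 1 row. RNA came from retinas of C57BL/6J mice with oxygen-induced retinopathy at 17 days of age, a model in which young mice breathe high oxygen, lose retinal capillaries and then form abnormal vessels in room air. All animals of both groups had this retinopathy and all had received a self-complementary adeno-associated virus (scAAV): 4 libraries from the control virus (controls 1 to 4) and 4 from the virus directed against the long noncoding RNA MM2P (knockdown 1 to 4), whose treatment label reads as a knockout. The vector's promoter, the cells it reached and the number of animals behind a library are unknown from the sources at hand. The 6 genes were selected on their knockdown and control levels, so those levels are a description and support no test.

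Beta-crystallins share a fold of paired Greek key motifs with the gamma-crystallins, and they assemble into dimers and larger oligomers. With the alpha- and gamma-crystallins they make up most of the soluble protein of lens fibre cells, where their high concentration gives the lens its refractive index. Mutations in several of these genes cause inherited cataract. Low levels of some beta-crystallins are also known in the neural retina, where Crybb2 has been studied in axon regrowth and Cryba1 in astrocytes and the pigment epithelium. In the lens, their promoters respond to large Maf factors, Pax6, Prox1, Sox and Six3.

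The 6 genes lie on 3 chromosomes, and 4 of them form a pair of neighbouring couples on chromosome 5. In GENCODE M21 on GRCm38, Crybb1 (ENSMUSG00000029343; chromosome 5, 112255815 to 112269585, plus strand) and Cryba4 (ENSMUSG00000066975; chromosome 5, 112246493 to 112252518, minus strand) are transcribed away from each other. Their start sites in RefSeq are 3302 bases apart, with 0 annotated genes between them. Crybb2 (ENSMUSG00000042240; 113058258 to 113070117) and Crybb3 (ENSMUSG00000029352; 113075839 to 113081584) follow each other on the minus strand of the same chromosome with a gap of 5721 bases and again 0 genes between. Cryba1 (ENSMUSG00000000724; chromosome 11, 77718615 to 77725283, minus strand) overlaps the opposite-strand gene Nufip2, and Crybb2 overlaps the opposite-strand pseudogene Gm43247. Cryba2 (ENSMUSG00000006546; chromosome 1, 74889934 to 74893143, minus strand) stands alone. The coding transcripts used here have 5 or 6 exons and coding lengths of 588 to 750 bases.

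The coding sequences of the 6 genes were distant enough for their reads to be told apart. Over 15 pairs, the identity of aligned coding bases ran from 61.9% (Cryba2 and Crybb2) to 69.5% (Crybb1 and Crybb3). Of the 50-base words in their GENCODE transcripts, 0 recurred in a transcript of any other gene on either strand, for each of the 6. All 48 estimated counts of the beta-crystallins were whole numbers to within 1e-06, whereas 40 of 48 were whole among the 6 gamma-crystallin genes of the chromosome 1 cluster, which are close copies of each other and whose single levels are therefore uncertain.

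Promoter windows of 4 genes are shown, since these genes are the highest in the knockdown (Cryba1), the highest in the controls (Crybb3) and the divergent couple (Cryba4 and Crybb1). Each runs 5′ to 3′ from 250 bases before the start site to 50 bases after it, from RefSeq on GRCm38.p6, with chr11:77725244-77725543 (minus strand) for Cryba1, chr5:112252469-112252768 (minus strand) for Cryba4, chr5:112255570-112255869 (plus strand) for Crybb1 and chr5:113081535-113081834 (minus strand) for Crybb3. Capitals mark matches, on either strand, to the core Maf motif (TGCTGAC), a Sox motif (ACAAAG or ACAATG) or a TATA box (TATAAA).
Cryba1: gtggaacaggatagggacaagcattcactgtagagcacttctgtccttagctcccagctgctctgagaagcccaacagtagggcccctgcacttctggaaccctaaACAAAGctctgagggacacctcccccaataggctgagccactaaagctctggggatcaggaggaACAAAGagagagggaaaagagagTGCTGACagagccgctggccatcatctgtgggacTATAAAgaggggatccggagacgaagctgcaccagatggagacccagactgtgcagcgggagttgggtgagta
Cryba4: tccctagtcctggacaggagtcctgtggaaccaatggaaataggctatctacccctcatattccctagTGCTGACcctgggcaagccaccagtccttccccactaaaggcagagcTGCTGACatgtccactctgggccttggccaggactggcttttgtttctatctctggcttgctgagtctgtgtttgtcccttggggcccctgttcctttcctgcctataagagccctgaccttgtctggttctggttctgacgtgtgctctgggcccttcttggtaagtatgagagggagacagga
Crybb1: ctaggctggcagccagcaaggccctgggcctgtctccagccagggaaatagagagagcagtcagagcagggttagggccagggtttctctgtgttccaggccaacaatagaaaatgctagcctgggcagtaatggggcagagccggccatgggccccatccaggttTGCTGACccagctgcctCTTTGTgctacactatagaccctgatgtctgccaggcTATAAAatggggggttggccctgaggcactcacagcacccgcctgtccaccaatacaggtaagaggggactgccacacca
Crybb3: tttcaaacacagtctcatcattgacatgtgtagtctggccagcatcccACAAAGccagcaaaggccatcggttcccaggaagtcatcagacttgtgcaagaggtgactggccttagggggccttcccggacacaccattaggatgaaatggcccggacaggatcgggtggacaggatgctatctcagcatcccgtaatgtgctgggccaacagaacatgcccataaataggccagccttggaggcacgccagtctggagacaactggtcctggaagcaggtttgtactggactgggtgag

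The core Maf motif TGCTGAC was in the windows of 3 of the 6 genes, Cryba1, Cryba4 and Crybb1, and in 4.67% of 32851 promoter windows of this length. Cryba1 held it 57 bases before the start site, Crybb1 84 bases before, and Cryba4 at 182 and 135 bases before. TATAAA was found in Cryba1, Cryba2 and Crybb1 (13.6% of all windows), ACAAAG in Cryba1, Crybb1 and Crybb3 (18.7%), and ACAATG in Crybb2 (12.6%). The TATAAA match began 23 bases before the start site in Cryba1 and 30 before it in Crybb1. In Cryba2 it began 3 bases before and spanned the start site. The AP-1 motif TGANTCA, which shares its first letters with the end of the core Maf motif, was in the window of Cryba2 (7.81% of all windows). The full Maf recognition element (T-MARE) and the heat shock element GAANNTTC were in 0 of the 6, against 0.00304% and 7.86% of all windows. All of these are exact matches. In Cryba2, the AP-1 match lies in a stretch that equals the T-MARE except at its first and last letters. The lack of an exact Maf match in Cryba2 therefore does not mean that its window has no Maf-like site. These matches describe letters alone, and binding was not measured.

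**Figure D1:**
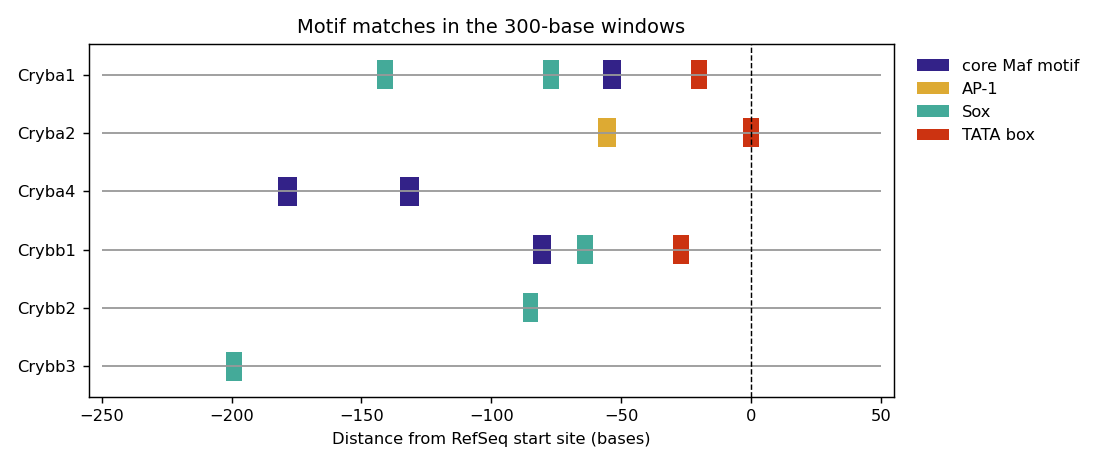
Positions of motif matches in the promoter windows of the 6 beta-crystallin genes, as distance in bases from the RefSeq start site (dashed line). Each block is one match on either strand, coloured by motif. Cryba1 and Crybb1 carry a core Maf motif, a Sox motif and a TATA box, and Crybb2 and Crybb3 carry 1 Sox match each.

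Total estimated counts per library were 16.03 M to 21.4 M, the lowest in knockdown 3, and 3 counts corresponded to 0.142 to 0.186 CPM (counts per 1 M counts of a library, after scaling). Markers of 7 retinal cell classes were present as the tissue label says: all 36 passed the expression filter. Of these, 1 was called in edgeR, the ganglion cell gene Slc17a6 (lower in the knockdown), where 0.062% of all tested genes were called. Of the 6 ganglion cell markers, 5 were at an unadjusted edgeR p under 0.05, and 0 had a positive log2 fold change (median -0.20). Over all 16118 tested genes, 850 were at such a p. Each of the other classes had 0 or 1 marker at such a p. The targeted RNA, listed as Mm2pr, had 1, 1, 16.95 and 7.34 counts in controls 1 to 4 and 0, 0, 2 and 20.6 counts in knockdown 1 to 4, so it does not check the labels. The labels do not say whether replicates were separate animals, and spread between libraries may thus be partly technical. In bulk tissue, more cells of a type and more RNA per cell cannot be told apart.

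In the control retinas, Crybb3 and Crybb1 were above the floor of 3 counts in all 4 libraries, Cryba4 in 3 of 4, and the other genes of the family in none. Levels between genes are compared here in TPM, a unit that divides counts by gene length as well as by library size. Crybb3 stood first at 6.04, 5.71, 4.79 and 6.11 TPM in controls 1 to 4 (5.66 ± 0.605, SD, n = 4). Crybb1 came second at 2.77, 3.54, 1.90 and 1.92 TPM (2.54 ± 0.786, SD, n = 4), below Crybb3 in all 4 libraries and with no overlap of the ranges. Cryba4 came next at 0.908, 0.907, 0 and 0.726 TPM, again below the range of Crybb1. Cryba1 (0.268 ± 0.232 TPM, SD, n = 4), Cryba2 (0.165 ± 0.191) and Crybb2 (0.165 ± 0.200) followed, and these neighbours in the order overlapped. Their control libraries held 0 to 3 counts per gene, at or under the floor of 3 counts.

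In the knockdown, the acidic member Cryba1 had the highest mean of the family, though Crybb3 was above it in knockdown 2 and knockdown 4. Cryba1 is translated into βA3- and βA1-crystallin from one messenger RNA. It had 0, 3, 1 and 3 counts in controls 1 to 4 and 106, 30, 361 and 45 in knockdown 1 to 4. As CPM, these were 0 to 0.148 in the controls and 5.70, 1.56, 22.4 and 2.23 in the knockdown, so the groups did not overlap and the lowest knockdown library was well above the highest control. Knockdown over control, the summed and scaled counts stood at a ratio of 86.5 (41.7 to 216, exact 95% interval for counting), and 36.9 (17.6 to 93.1) without knockdown 3. Intervals of this kind cover counting error only. The edgeR log2 fold change was 6.43 (SE 1.05).

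The other acidic genes were lower. Cryba4, which encodes βA4-crystallin, had 6, 6, 0 and 5 counts in the controls and 31, 14, 49 and 9 in the knockdown. The controls reached at most 0.294 CPM, and the knockdown libraries ranged from 0.446 to 3.04, with no overlap. The ratio was 6.76 (4.03 to 12.1), or 4.53 (2.59 to 8.34) without knockdown 3, and the edgeR log2 fold change was 2.77 (SE 0.68). Cryba2, which encodes βA2-crystallin, had the fewest reads of the family. Its counts were 2, 0, 2 and 0 in the controls and 16, 1, 29 and 3 in the knockdown. The groups overlapped, because knockdown 2 had 1 count. The ratio was 13.7 (5.01 to 52.2), and 7.14 (2.39 to 28.7) without knockdown 3.

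Among the basic genes, Crybb2 showed the pattern of Cryba1, while Crybb1 and Crybb3 started from a measurable level. Crybb2 encodes βB2-crystallin, the most abundant β-crystallin of the mature lens. It had 0, 3, 2 and 0 counts in controls 1 to 4 and 44, 14, 148 and 26 in knockdown 1 to 4. In CPM the controls were at 0 to 0.144 and the knockdown at 2.37, 0.729, 9.17 and 1.29, with no overlap. The ratio was 51.8 (21.9 to 161), or 24.0 (9.88 to 75.8) without knockdown 3, with an edgeR log2 fold change of 5.64 (SE 0.99).

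Crybb3, which encodes βB3-crystallin, had 37, 35, 31 and 39 counts in the controls and 61, 39, 177 and 69 in the knockdown. In CPM the controls lay between 1.46 and 1.92, and the knockdown libraries were at 3.28, 2.03, 10.97 and 3.42. The groups did not overlap, but knockdown 2 was close to the highest control. The ratio was 2.72 (2.23 to 3.33), or 1.70 (1.35 to 2.14) without knockdown 3. Crybb1, which encodes βB1-crystallin with its long terminal extensions, had 18, 23, 13 and 13 counts in the controls and 49, 13, 89 and 38 in the knockdown. At 0.677 CPM, knockdown 2 fell inside the control range of 0.613 to 1.11 CPM, while the other 3 knockdown libraries were above it at 1.88 to 5.52 CPM. The ratio was 3.15 (2.37 to 4.23), and 2.13 (1.55 to 2.95) without knockdown 3. The edgeR log2 fold changes were 1.497 (SE 0.42) for Crybb3 and 1.70 (SE 0.49) for Crybb1.

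**Figure D2:**
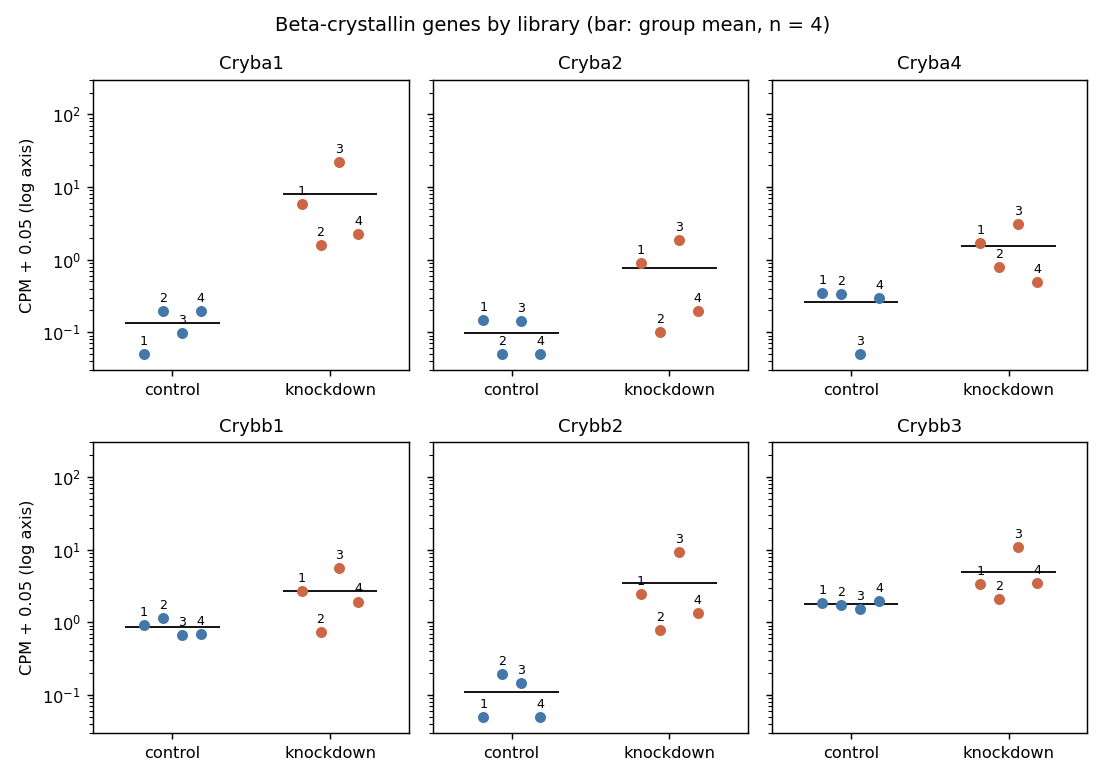
CPM of each beta-crystallin gene in each library, with 0.05 added for the log axis. Points are single libraries with their replicate number and bars are group means (n = 4). Knockdown 3 is the highest library for all 6 genes, and the groups overlap for Cryba2 and Crybb1.

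Of the 6 genes, 4 had all knockdown libraries above all controls (Cryba1, Cryba4, Crybb2 and Crybb3), against 1.35% of the 29694 genes with a count. Of the 5 that passed the expression filter, 3 (Cryba1, Cryba4 and Crybb2) reached 1 TPM only in knockdown libraries, and these therefore had to differ in order to be tested. Crybb1 and Crybb3 were at 1 TPM or more in all 8 libraries. In edgeR's quasi-likelihood test 1 of the 5, Cryba1, passed a Benjamini-Hochberg adjusted p of 0.05 and was higher, where 0.0434% of 16118 tested genes were called higher. Cryba1 lost this call when any 1 of the 4 controls was left out, and Crybb2 gained it without knockdown 1 or knockdown 2. With no expression filter edgeR called all 6 genes higher (0.216% of 29694 genes), Cryba2 among them with a log2 fold change of 3.68 (SE 0.86). Cryba2 lost that call without knockdown 3, at a log2 fold change of 2.71 and an edgeR adjusted p of 0.728, and with DESeq2 (adjusted p of 0.217) or limma (0.943). DESeq2 on the filtered genes called Cryba1, Cryba4 and Crybb2 (0.0993% called higher). In limma 0 of the 5 were called, as were 0% of all genes. At an unadjusted limma p under 0.05 there were 5 of the 5, against 804 of all 16118 tested genes. Nothing is read from these counts, since the same contrast chose the genes.

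The 6 genes together came to 3.08, 3.36, 2.31 and 2.96 CPM in controls 1 to 4. Knockdown 1 to 4 reached 16.5, 5.78, 52.9 and 9.42 CPM. The group means were 2.93 ± 0.445 and 21.1 ± 21.6 CPM (SD, n = 4), a ratio of 7.22. The spread among knockdown libraries was as large as their mean, and the ratio was 3.61 without knockdown 3.

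The make-up of the family signal differed between the groups. As a share of summed beta-crystallin TPM, Crybb3 held 60.7% ± 6.53 and Crybb1 26.5% ± 4.66 in the controls (SD, n = 4). In the knockdown Cryba1 held 32.3% ± 8.55, Crybb3 29.5% ± 9.28, Crybb1 14.4% ± 4.29, Crybb2 12.6% ± 1.82, Cryba4 8.10% ± 3.599 and Cryba2 3.04% ± 2.13. Crybb3 ranged from 51.7% to 66.3% in the controls and from 20.96% to 38.1% in the knockdown, with no overlap. Cryba1 ranged from 0 to 4.91% in the controls and from 23.9% to 43.1% in the knockdown. The control shares of Cryba1, Cryba2 and Crybb2 rest on at most 3 counts a library.

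The order of the genes per length thus changed as well. Cryba1 came first in the knockdown at 17.4, 4.99, 73.1 and 7.20 TPM (25.7 ± 32.1, SD, n = 4), followed by Crybb3 (16.4 ± 14.0), Crybb2 (9.37 ± 11.04), Crybb1 (8.41 ± 6.62), Cryba4 (4.52 ± 3.67) and Cryba2 (2.47 ± 2.84). All neighbours in this order overlapped. Within a library, Crybb2 was below Crybb3 and Cryba2 below Cryba4 in all 4, whereas Cryba1 was above Crybb3 in 2 (knockdown 1 and 3). The difference of the group means was 25.4 TPM for Cryba1, 10.8 for Crybb3, 9.20 for Crybb2, 5.87 for Crybb1, 3.88 for Cryba4 and 2.30 for Cryba2. Without knockdown 3 these differences were 9.58, 3.86, 3.76, 2.79, 2.20 and 1.012 TPM, in the same order of genes.

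**Figure D3:**
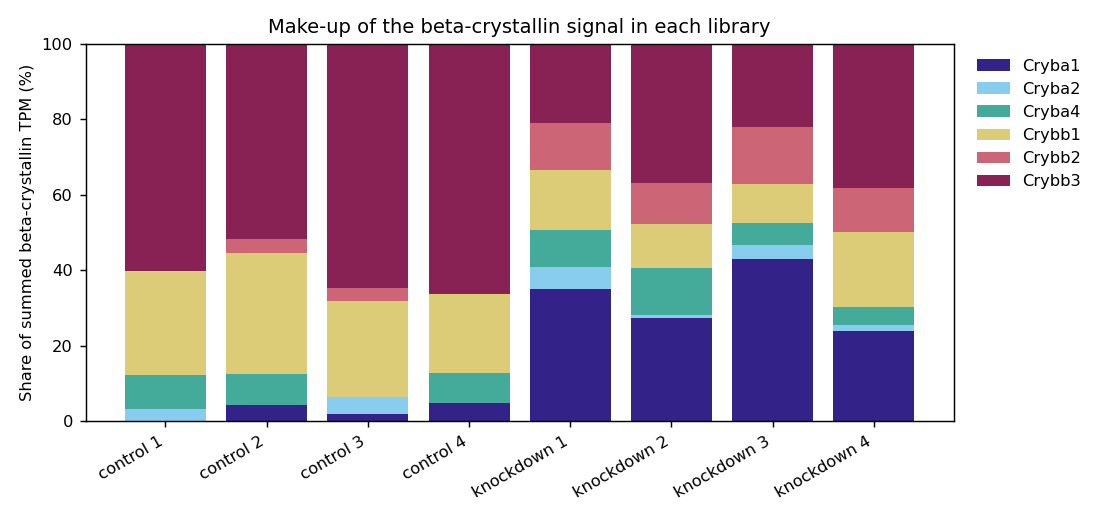
Share of each gene in the summed beta-crystallin TPM of each library, in percent. Colours are the 6 genes. Crybb3 holds 51.7% to 66.3% in the controls and 20.96% to 38.1% in the knockdown libraries, where Cryba1 holds 23.9% to 43.1%.

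The 4 knockdown libraries differed strongly among themselves, and the 6 genes ranked them nearly alike. Knockdown 3 was the highest for all 6. The order was knockdown 3, 1, 4 and 2 for 4 genes (Cryba1, Cryba2, Crybb1 and Crybb2), 3, 4, 1 and 2 for Crybb3 and 3, 1, 2 and 4 for Cryba4. The CPM of knockdown 3 over that of knockdown 2 was 4.16 for Cryba4, 5.40 for Crybb3, 8.15 for Crybb1, 12.6 for Crybb2, 14.3 for Cryba1 and 34.5 for Cryba2, the last against 1 count. Over all 16118 tested genes, 56 were at least 4-fold higher in knockdown 3 than in knockdown 2. Of these 56, 12 were crystallins, 5 of them beta-crystallins. This threshold was chosen after the values were seen. Knockdown 3 also had the smallest library, and the part of depth in this order was not tested.

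Over the 15 pairs of members, Pearson's r of log2(CPM + 0.5) ran from 0.884 (Cryba4 and Crybb3) to 0.993 (Cryba1 and Crybb2) across the 8 libraries. Within the 4 knockdown libraries it ran from 0.795 to 0.995. These values are a description, since the pairs share libraries and the group difference that chose the genes.

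The same measure was used to find the genes most like the summed beta-crystallins among 16075 others with a mean of at least 1 TPM. Among the 10 highest were Crygs (r = 0.993), Crygc (0.979), Atl2 (0.973), Cenpl (0.970), Cryaa (0.968), Crygd (0.964), U2af1l4 (0.963), Gm19744 (0.956) and Lactb2 (0.949), over 8 libraries. Of the 10, 4 were crystallins. In the controls these 4 averaged 0 to 0.38 TPM, so they reached the mean of 1 TPM through the knockdown libraries. Their r holds the group difference that chose the members, and nothing is read from this count. Atl2, which shapes the endoplasmic reticulum, moved by little, from 98.5 ± 1.39 to 110.6 ± 10.2 CPM (SD, n = 4), so a high r does not mean a large change. With Spearman's rho 3 of the 10 stayed among the highest 10, and with the knockdown libraries alone 1 did. Taken singly, Cryba1 and Crybb2 were most like Crygs (0.992 and 0.996), Cryba2 was most like Atl2 (0.974), Cryba4 like Gstcd (0.966), Crybb1 like Cd1d1 (0.978) and Crybb3 like Gmds (0.974).

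The alpha- and gamma-crystallin genes, the other crystallins of the lens, were set beside the beta-crystallins. Of 10 such genes, 8 were tested, and 6 were called higher in edgeR (Cryaa, Cryga, Crygb, Crygc, Crygd and Cryge), against 0.0434% of all tested genes. Of the 8, 7 (all but Cryab) reached 1 TPM only in knockdown libraries and so had to differ in order to be tested. This list was also drawn up with the results known, and nothing is read from its count. The numbers of calls fell to 0 without control 1, without control 2 or without control 4. The chaperone gene Cryaa had 14.9, 3.70, 40.5 and 5.70 CPM in knockdown 1 to 4, against 0.0472 to 0.336 in the controls. Crygs, the gamma-crystallin gene outside the cluster, had 0 counts in all 4 controls and 45, 14, 216 and 25 in the knockdown, the same order of libraries as Cryba1. Cryab encodes αB-crystallin, a chaperone also made by retinal cells. It went uncalled, with a control mean of 30.4 ± 2.09 CPM and a knockdown mean of 37.5 ± 9.74 CPM (SD, n = 4).

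Across the knockdown libraries, the balance of beta-crystallins to Cryaa varied less than their balance to the gamma-crystallin cluster. Of the counts of the 6 beta-crystallins and Cryaa together, the beta-crystallins held 52.6%, 61.0%, 56.6% and 62.3% in knockdown 1 to 4. Exact Clopper-Pearson 95% intervals for counting error were 48.4% to 56.7% in knockdown 1 and 56.6% to 67.8% in knockdown 4. Against the 6 cluster genes (Cryga to Crygf), their share was 63.6% (59.1% to 67.9%) in knockdown 1, 53.4% (46.3% to 60.3%) in knockdown 2, 49.7% (47.3% to 52.1%) in knockdown 3 and 31.5% (27.8% to 35.3%) in knockdown 4. Knockdown 1 and knockdown 4 thus lay on opposite sides, with 307 beta and 176 gamma counts in the former and 190 beta and 414 gamma counts in the latter. For Cryba1 alone against the cluster, the share was 37.6% (31.9% to 43.5%) in knockdown 1 and 9.80% (7.24% to 12.9%) in knockdown 4. Against Cryaa alone, Cryba1 held 27.7%, 29.7%, 35.6% and 28.1% in knockdown 1 to 4. In the controls, whose beta-crystallin counts came mainly from Crybb3 and Crybb1, the 6 genes had 49 to 70 counts and the gamma cluster 0 to 6. Of the 111 beta-crystallin counts in knockdown 2, Crybb3 had 39 and Crybb1 13, against 31 to 39 and 13 to 23 in the controls. The shares of the 6 genes thus include counts at the control level, and no baseline was subtracted.

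**Figure D4:**
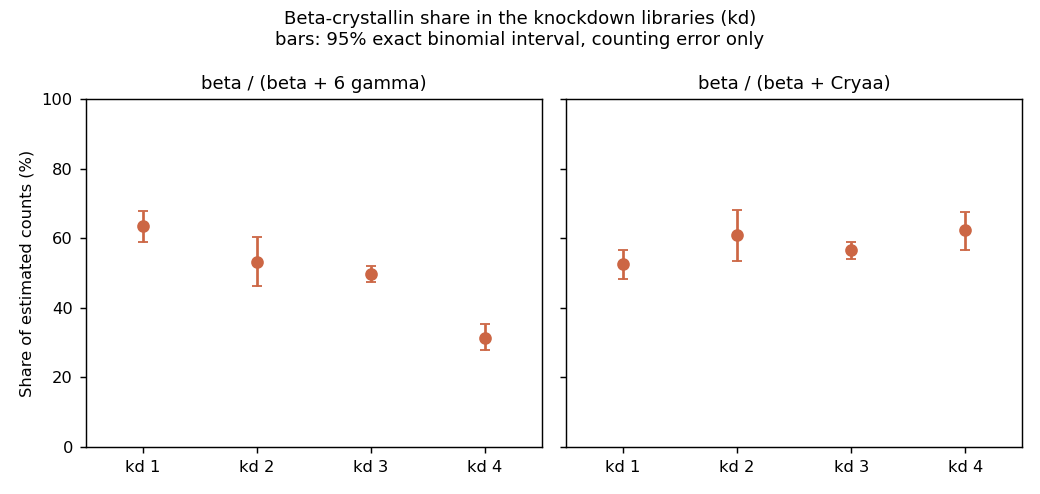
Share of beta-crystallin counts in the sum with the 6 gamma-crystallin cluster genes (left) and with Cryaa (right), in percent, for the 4 knockdown libraries. Bars are 95% exact binomial intervals, which cover counting error only. Against the cluster the share runs from 31.5% in knockdown 4 to 63.6% in knockdown 1, and against Cryaa from 52.6% to 62.3%.

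Genes of lens fibre cells other than crystallins were low in both groups. The 12 fibre markers, which include water channel, gap junction and beaded filament genes, summed to 4.23 to 6.37 CPM in the controls. In knockdown 1 to 4 they summed to 6.56, 4.95, 14.9 and 6.60 CPM, so knockdown 2 lay inside the control range, knockdown 1 and 4 just above it and knockdown 3 far above it. Of the 12, 4 were tested and 0 were called in edgeR, DESeq2 or limma. At an unadjusted edgeR p under 0.05 there was 1, Bfsp1, against 850 of all 16118 tested genes. Since edgeR called 0.062% of all tested genes, 0 calls among 4 say nothing particular about them. The lens water channel gene Mip, which did not pass the filter, averaged 0.615 ± 0.136 CPM across controls (SD, n = 4), against 0.645, 0.208, 5.33 and 0.595 CPM in knockdown 1 to 4. The beaded filament gene Bfsp1 had 0.656 ± 0.257 and 1.498 ± 0.878 CPM (SD, n = 4), highest in knockdown 3 at 2.79. In all, 9 of the 12 were higher in knockdown 3 than in each of the other 7 libraries. None of the 12 was at 0 in all libraries. Dnase2b, the nuclease that removes fibre cell nuclei, had 2, 0, 0 and 0 counts in controls 1 to 4 and 0 in all 4 knockdown libraries. The gap junction gene Gja3 had 0, 0, 2 and 0 counts in controls 1 to 4 and 0, 0, 4 and 0 in knockdown 1 to 4. Both genes were thus nearly empty in both groups. The part of lens tissue in the beta-crystallin levels was not tested.

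**Figure D5:**
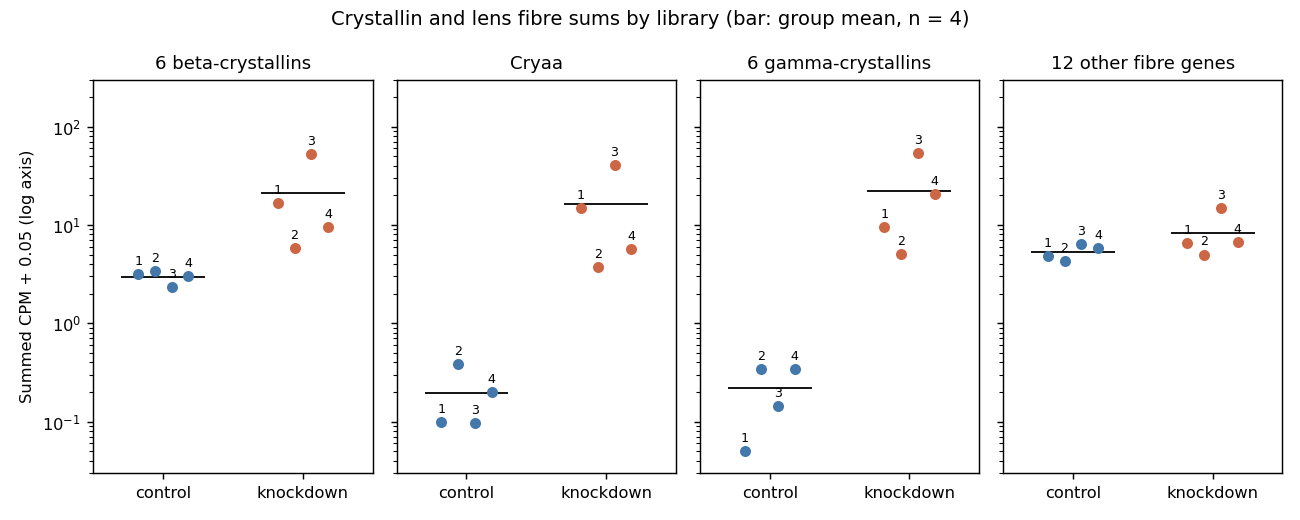
Summed CPM of the 6 beta-crystallins, of Cryaa alone, of the 6 gamma-crystallin cluster genes and of 12 non-crystallin lens fibre genes in each library, with 0.05 added for the log axis. Numbers are replicates and bars are group means (n = 4). The first 3 sums separate the groups, and among the fibre genes knockdown 3 stands apart at 14.9 CPM.

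Markers of other tissues were set beside the beta-crystallins, and the pigment epithelium and skeletal muscle sums were not highest in knockdown 3. The lens epithelium factors Foxe3 and Pitx3 had 0 counts in all 8 libraries. Of that list of 4, Mab21l1 alone was tested and was not called, with sums over the list of 305.5 to 343 CPM (controls) and 310.3 to 337 CPM (knockdown). Mab21l1 by itself made up 304 to 342 CPM (controls) and 309 to 335 CPM (knockdown) of these sums. They therefore describe this 1 gene and cannot show whether lens epithelium followed the beta-crystallins. The 7 corneal epithelium markers summed to 0.577 to 1.38 CPM (controls) and 0.930 to 1.25 CPM (knockdown), and the keratin genes Krt5 and Krt14 had 0 counts in all libraries. The keratin gene Krt12 had 3, 3, 3 and 1 counts in controls 1 to 4 and 5, 3, 4 and 4.59 in knockdown 1 to 4. In CPM its knockdown libraries were all above the controls, as for 1.35% of genes with a count. The 10 pigment epithelium markers summed to 225 to 284 and 219 to 298 CPM, with 9 tested and 0 called in edgeR, DESeq2 or limma. At an unadjusted edgeR p under 0.05 there were 4 of the 9, against 850 of all 16118 tested genes. Of these 4, the pigment genes Tyr, Dct and Pmel had positive log2 fold changes (0.44, 0.28 and 0.53), and the visual cycle gene Lrat had a negative one (-0.41), so the sum covers members of both signs. Tyr had all knockdown libraries (8.86 to 10.9 CPM) above all controls (6.04 to 7.54 CPM), again as for 1.35% of genes with a count. The 6 skeletal muscle markers summed to 33.8 CPM in knockdown 4 and to 2.50 to 5.58 CPM in the other 7 libraries. Knockdown 4 was below knockdown 3 and knockdown 1 in 5 of the 6 beta-crystallins. The glial filament gene Gfap was highest in knockdown 1, with 2513 counts against 651 to 1416 elsewhere. The part of these tissues in the beta-crystallin levels was not tested.

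Transcription factors that act on crystallin promoters in the lens were measured at widely different levels. Of 17 such genes, 13 were tested and 0 were called in edgeR, DESeq2 or limma. At an unadjusted edgeR p under 0.05 there were 0, against 850 of all 16118 tested genes. Since edgeR called 0.062% of all tested genes, 0 calls in a list of this size say nothing particular about it. Their median log2 fold change was -0.02, against 0.00386 over all 16118 tested genes. Pax6, the eye field factor that retinal neurons also express, averaged 312 ± 13.0 CPM (controls) and 309 ± 31.5 CPM (knockdown; SD, n = 4). Prox1, which drives fibre differentiation in the lens and marks horizontal and bipolar cells in the retina, had 236 ± 20.9 and 250.5 ± 25.0 CPM (SD, n = 4). The large Maf factor gene Maf was at 27.5 ± 0.946 and 26.9 ± 1.66 CPM (SD, n = 4), and the fibre heat shock factor gene Hsf4, a member of both lists, at 1.65 ± 0.425 and 1.33 ± 0.289 CPM. Sox1, which the lens needs for gamma-crystallin expression, had 0 to 0.186 CPM.

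Relatives of the beta-crystallins outside the lens were measured too. The 3 genes of the beta/gamma-crystallin domain family outside the lens, Crybg1, Crybg2 and Crybg3, summed to 41.9 ± 2.87 and 44.7 ± 1.82 CPM (SD, n = 4). Crybg3, the 1 tested, went uncalled at 40.3 ± 2.92 and 43.5 ± 1.33 CPM. The 4 enzyme crystallin genes Cryz, Cryzl1, Cryl1 and Crym, which carry the name because their relatives serve as lens proteins in other animals, were all tested. Of these, 0 were called in edgeR, DESeq2 or limma, where edgeR called 0.062% of all tested genes. At an unadjusted edgeR p under 0.05 there was 1, Crym, against 850 of all 16118 tested genes. Crym had 78.4 ± 5.81 and 103.6 ± 34.8 CPM (SD, n = 4) and was highest in knockdown 1, not in knockdown 3.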

How the data were processed

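The deposited file, labelled TPM, contains the authors' estimated counts: totals differ between libraries and lie far above a TPM sum, and 90.6% to 91.9% of a library's entries are whole. Total RNA was read as 150-base pairs, per the labels' protocols. The submitters' processing notes list Bowtie 0.12.2 and mm9 without saying what either was used for. The tool that estimated the counts is not given in the sources used here. Positions came from GENCODE M21 and RefSeq on GRCm38, since the table gives none. The authors' group means were not used.

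TPM was computed from the deposited estimated counts and gene lengths. Of 57010 genes, 29694 had a count and 16118 with at least 1 TPM in at least 4 libraries were tested. Counts were rounded and compared with edgeR 4.0.16 (quasi-likelihood test, TMM scaling, group as the only term) in R 4.3.3. CPM values are unrounded counts over the TMM-scaled total of tested genes. Called means a Benjamini-Hochberg adjusted p under 0.05, and SE is the size of the log2 fold change divided by √F. Cryba2 failed the filter, and its fold change comes from an unfiltered fit. DESeq2 1.42.0, limma 3.58.1 on log2(TPM + 1), other filters, scalings and dispersions and leaving out each library were alternatives. Fits were tested on simulated data, in which the changed genes all had a higher mean CPM over the libraries than the members. That test therefore does not cover genes as low as these. Coding sequences were aligned with Biopython 1.88.

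Members, lists, motifs and rules were chosen with earlier results of these data known. Named genes were the 6 members, up to 4 called genes of a list (or else its 2 highest) and the 10 genes most like the summed members. Of these 10, 1 is not reported here. Other named genes, and the ratios without knockdown 3, were added after their values were seen.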

Additional observations from a re-analysis of the deposited data

Results flagged for a closer look

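Among 48 groups of 4 values checked for a library far from the rest, 4 stood out, where chance gives about 1 in 20. Crybb3 in the knockdown had 1 high library, knockdown 3 at 10.97 CPM against 2.03 to 3.42 CPM in the others, a gap of 0.845 of the whole range. Cryba4 in the controls had 1 low library, control 3 at 0 CPM against 0.246 to 0.294 CPM, a gap of 0.839 of the range that rests on 0 against 5 or 6 counts. The summed non-crystallin lens fibre genes were high in knockdown 3, at 14.9 CPM against 4.95 to 6.60 CPM in the other knockdown libraries (gap 0.834 of the range). The summed skeletal muscle markers were high in knockdown 4, at 33.8 CPM against 2.90 to 3.70 CPM (gap 0.974 of the range).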

How the results depend on the processing

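The number of genes called was 10 in edgeR with the filter. It was 45 in DESeq2, 157 with no filter, 1 with a mean TPM of at least 5, 0 with a robust dispersion (833 at an unadjusted p under 0.05) and 0 in limma (804). Leaving out single libraries gave 0 to 58 genes, 0 without control 1 (674 unadjusted) or control 2 (821) and 58 without control 3. Of the beta-crystallins 1 was called, against 3 in DESeq2, 6 with no filter, 0 with a mean TPM of at least 5 (3 unadjusted), 0 with a robust dispersion (5), 0 in limma (5), 2 with a replicate block and 0 to 2 with single libraries left out (5 unadjusted in each). Of the other crystallins 6 were called, against 7 in DESeq2, 8 with no filter and 7 with a replicate block. The number was 0 with a mean TPM of at least 5 (7 unadjusted), 0 with a robust dispersion (6), 0 in limma (8) and 0 to 6 with single libraries left out (7 or 8). The causes of these shifts were not tested. Non-crystallin lens fibre genes had 0 calls under each alternative run (0 to 2 unadjusted). Fold changes of the 6 genes were positive under each alternative that could fit them, between 0.76 (Crybb3) and 6.80 (Cryba1). The ratio of summed beta-crystallin levels was 7.26 with no TMM, 7.09 in TPM and 3.61 to 8.97 with single libraries left out. Same-numbered libraries did not deviate together (correlations of -0.16 to 0.01 over genes, and 0 of 8 libraries were closest to their own number), so the replicate block pairs nothing known; with it 11 genes were called. Depth limits the controls, where 3 of the 6 genes had at most 3 counts a library.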
